A study of Mus musculus with 20 samples.

Results

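The acetylcholine receptor genes measured here were 10 of the 39179 genes counted in the mouse striatum. They comprised 4 muscarinic receptors (Chrm1, Chrm2, Chrm3 and Chrm5) and 6 nicotinic receptor subunits (Chrna3, Chrna4, Chrna6, Chrna7, Chrnb2 and Chrnb3), taken from the count tables by their Ensembl gene IDs. RNA came from the bilateral dorsal and ventral striatum of 20 adult male mice, about 6.5 months old, of generation 17 of a selection experiment. Both lines, Control and High-Active, descended from an intercross of 8 inbred strains, and High-Active mice were bred for distance traveled in the home cage. Each mouse received an intraperitoneal injection of saline or of 0.25 mg/kg d-amphetamine sulfate 2 hours before it was killed, which gave 4 groups of 5 mice, saline and amphetamine within each line. There was 1 line of each kind, so a line difference can reflect selection or drift, and these cannot be told apart here. The labels give shared parents: the 10 Control mice came from 8 parent pairs and the 10 High-Active mice from 5, and 9 High-Active mice had a full sibling among the 10. The methods of the study describe the mice as drawn from separate families, and the parents in the labels were followed here.

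Acetylcholine in the striatum is released mainly by local cholinergic interneurons. It acts on muscarinic receptors, which are G protein-coupled, and on nicotinic receptors, which are ion channels built from 5 subunits. The M1, M3 and M5 receptors couple to Gq and phospholipase C, whereas M2 and M4 couple to Gi/o proteins and lower cyclic AMP. M1 is found on medium spiny neurons, the main neurons of the striatum, and M2 acts as an autoreceptor on cholinergic interneurons. Nicotinic receptors with alpha4, alpha6, beta2 and beta3 subunits sit on dopamine axons, where they raise dopamine release, and alpha7 forms receptors on its own.

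The short coding stretches below show what separates the members by class. They are stretches of 30 bases of the coding strand in the GENCODE M21 annotation of GRCm38, all within a coding exon. In the muscarinic genes the capitals mark the 9 bases that encode aspartate, arginine and tyrosine at the inner end of the third transmembrane helix, where the receptor faces its G protein.
Chrm1, chr19:8678284-8678313, plus strand: ctcatcagctttGACCGTTACttctcagtg
Chrm2, chr6:36523555-36523584, plus strand: atcatcagctttGATAGATACttctgtgtc
Chrm3, chr13:9878492-9878521, minus strand: gtgatcagctttGACAGGTACttttctatt
Chrm5, chr2:112480374-112480403, minus strand: gtgattagctttGATCGTTACttttccatc
In the nicotinic alpha subunits the capitals mark the 12 bases that encode tyrosine, any residue and a pair of adjacent cysteines, the feature that defines an alpha subunit and lies at the acetylcholine binding site.
Chrna3, chr9:55015845-55015874, minus strand: gaaatcaagTACAACTGCTGTgaggagatc
Chrna4, chr2:181029269-181029298, minus strand: accaggaagTATGAATGCTGTgccgagatc
Chrna6, chr8:27407170-27407199, minus strand: gacatcaagTACAACTGCTGTgaagagatt
Chrna7, chr7:63106149-63106178, minus strand: gagaagttcTATGAATGCTGCaaagagcca
Each of these 8 genes held its pattern at 1 in-frame place, and the beta subunits Chrnb2 and Chrnb3 held the cysteine pattern at 0 places. Among the longest complete coding sequences of 21523 protein-coding genes, 8.16% held the muscarinic pattern in frame and 1.15% held the cysteine pattern, so a match alone does not identify a receptor.

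The gene counts of a mouse summed to between 32388971 and 53710713 reads. No pair of libraries within a group differed by as little as sampling noise (chi-square per degree of freedom at least 17.2 in all 40 pairs). Markers of medium spiny neurons were abundant in every mouse, with 9 genes summing to between 4300 and 7100 CPM (reads per 1000000 counted reads, after TMM scaling, as for all levels given here). The 9 markers of cortical excitatory neurons, cells of the tissue that overlies the striatum, summed to between 163 and 968 CPM. In 4 High-Active mice, mice 1 and 4 of the saline group and mice 2 and 3 of the amphetamine group, the 7 thalamus and habenula markers summed to between 139 and 196 CPM. In the other 16 mice this sum was between 58.4 and 104. These 4 libraries stood apart from the rest. The line differences of Chrm1, Chrm2, Chrna4 and Chrnb2 are given with and without them.

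Mean levels among the 10 genes ran from 0.0352 to 22.4 CPM per kilobase of exon. Chrm1 was the highest of the 10 at 22.4 CPM per kilobase ± 3.82 (SD, n = 20) and made up a mean of 49.2% of the sum of the 10 genes. It was above every other member in 20 of 20 mice. Chrnb2, the most common beta subunit of brain nicotinic receptors, followed at 8.42 ± 0.723 CPM per kilobase, and its range did not overlap that of any other member. Chrna4, which pairs with Chrnb2 in the high-affinity nicotinic receptor, was at 5.11 ± 1.14 and Chrm2 at 3.80 ± 0.700 CPM per kilobase. Their ranges overlapped, with Chrna4 above Chrm2 in 17 mice.

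Chrm3 was at 2.23 ± 0.483 and Chrna7 at 2.03 ± 0.238 CPM per kilobase, and these neighbours did not separate, since Chrm3 was above Chrna7 in 13 of 20 mice. Chrm5 followed at 1.09 ± 0.303. Its annotated exon holds only the coding sequence of 1599 bases, so reads from its untranslated parts, if any, are not counted here. The last 3 genes were scarce, at 0.129 ± 0.0420 for Chrna3, 0.0617 ± 0.0308 for Chrnb3 and 0.0352 ± 0.0186 for Chrna6, all in CPM per kilobase, and the ranges of neighbours among them overlapped.

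**Figure D1:**
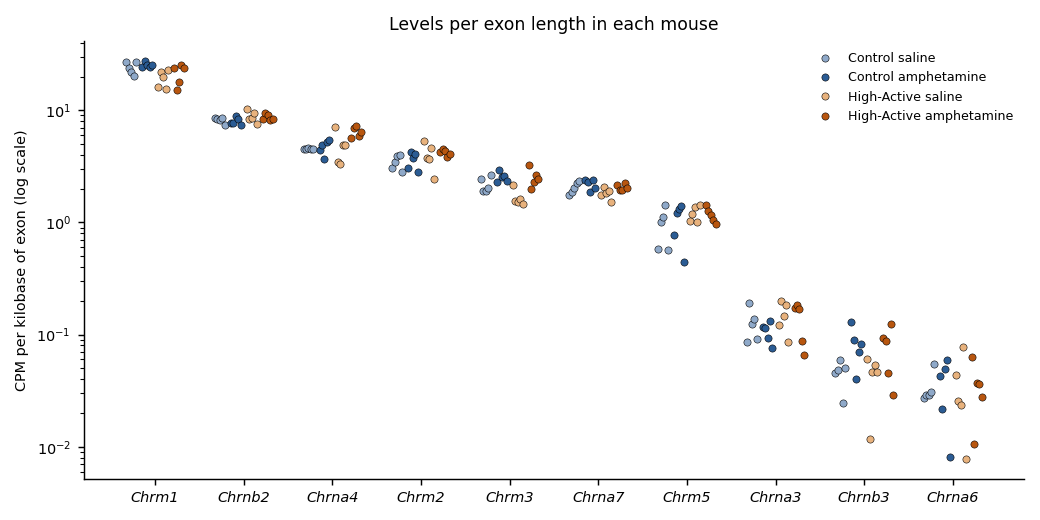
Level of each receptor gene in CPM per kilobase of exon, on a log axis, in each of the 20 mice, coloured by group and ordered by the mean. Chrm1 and Chrnb2 lie clear of all other members in every mouse, and Chrna3, Chrnb3 and Chrna6 lie below all the rest.

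Of the 10 genes, 7 passed the filter of more than 1 CPM in at least 3 mice, and Chrna3, Chrna6 and Chrnb3 did not. Differences between the lines were tested over all 14792 genes that passed, with edgeR's quasi-likelihood test and a Benjamini-Hochberg threshold of 0.1 (FDR). Over all genes 14.5% were called for the line effect, 7.63% higher and 6.9% lower in High-Active mice, and 1 of the 7 receptor genes that passed the filter was called, Chrm1, which was lower in High-Active mice. A share of 1 in 7 is close to that background. At an unadjusted p under 0.05, 3 receptor genes passed (Chrm1, Chrna4 and Chrnb2), against 26.1% of all genes.

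**Figure D2:**
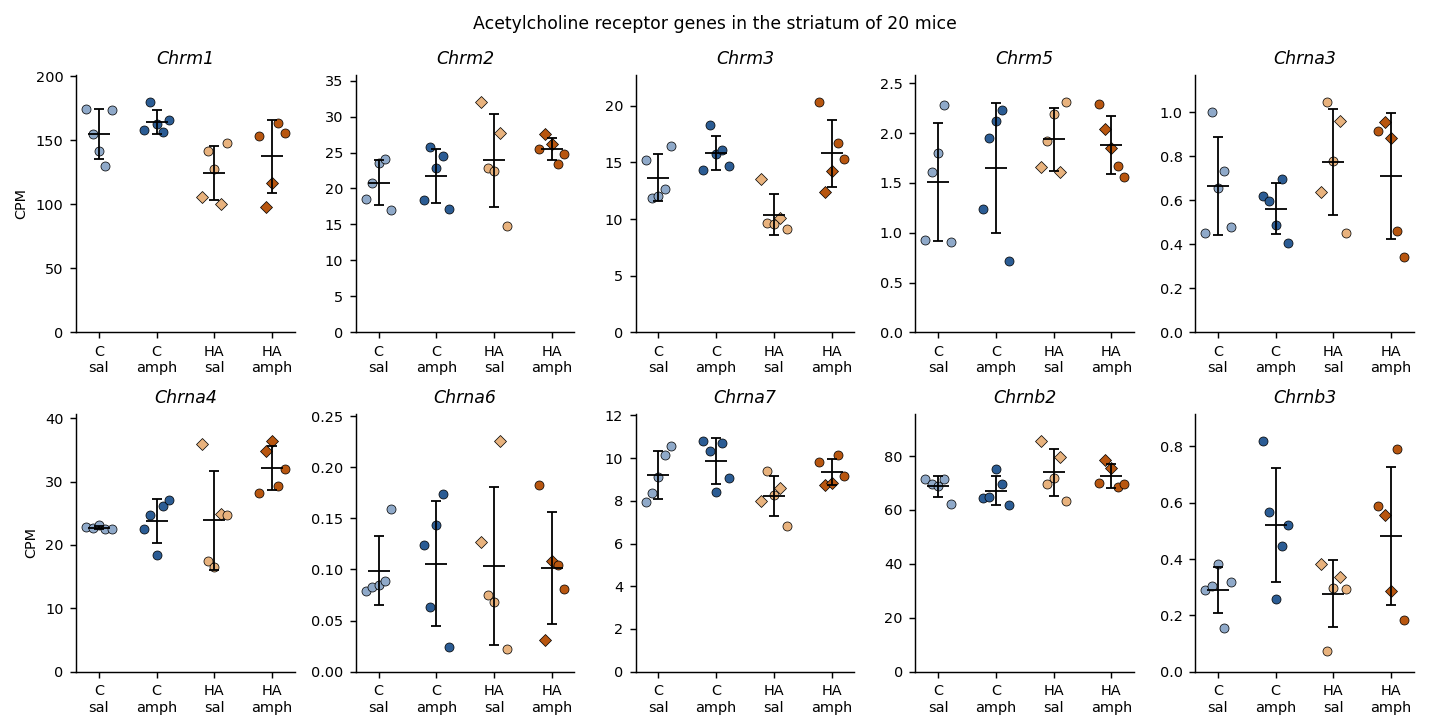
CPM of the 10 receptor genes in each mouse of the 4 groups (C, Control; HA, High-Active; sal, saline; amph, amphetamine), with the group mean and SD as bars and each vertical axis starting at 0. Diamonds mark the 4 High-Active mice with high thalamus marker sums, which are the lowest 4 mice for Chrm1 and the highest 4 for Chrm2 and Chrnb2.

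Chrm1 (ENSMUSG00000032773, GRCm38 chr19:8663789-8683587, plus strand) encodes the M1 receptor. Its level was 174, 155, 142, 130 and 174 CPM in Control saline mice 1 to 5. After amphetamine it was 158, 180, 163, 156 and 166 CPM in Control mice. High-Active saline mice had 105, 142, 127, 100.3 and 148 CPM. In High-Active amphetamine mice it was 153, 98.2, 117, 163 and 156 CPM. Of the 10 High-Active mice, 5 were below all 10 Control mice and 9 were below the Control median of 160.4 CPM. The line means were 159.8 ± 15.2 CPM in Control and 131.0 ± 24.6 CPM in High-Active mice (SD, n = 10 each), a log2 fold change of -0.29 (95% confidence interval -0.48 to -0.09, edgeR quasi-likelihood adjusted p = 0.0630).

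The 4 High-Active mice with high thalamus marker sums had the 4 lowest Chrm1 levels of all 20 mice, between 98.2 and 117 CPM, whereas the other 6 High-Active mice had between 127 and 163 CPM. Of all genes tested, 1.60% had these 4 mice lowest. Without these 4 mice the line difference of Chrm1 was -0.11 on the log2 scale and was not called (quasi-likelihood adjusted p = 0.412), with 3.89% of genes called in that fit. With cortical and thalamic marker scores in the model it was -0.13 (adjusted p = 0.132), and with cortical and oligodendrocyte scores -0.09 (adjusted p = 0.653, both by the quasi-likelihood test). The cortical marker sum was itself lower in High-Active mice, with a median of 322 CPM (163 to 968) against 671 CPM (296 to 831) in Control mice. Of its 9 genes 3 were called lower, against 6.9% of all genes. The part of either tissue in the Chrm1 difference was not tested further.

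The call of Chrm1 was also lost when counts were summed over mice of the same parents (log2 fold change -0.23, quasi-likelihood adjusted p = 0.111). It was lost on leaving out any 1 of 6 mice, with adjusted p between 0.101 and 0.114 in the same test. These were Control saline mice 1 and 5, Control amphetamine mouse 2, High-Active saline mouse 4 and High-Active amphetamine mice 2 and 3. The log2 fold change was -0.31 among the saline mice and -0.26 among the amphetamine mice, and neither was called. A misc_RNA gene, Gm22820, lies on the opposite strand over 329 exon bases of Chrm1, and the strand setting of the counting is not given in the sources used here.

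**Figure D3:**
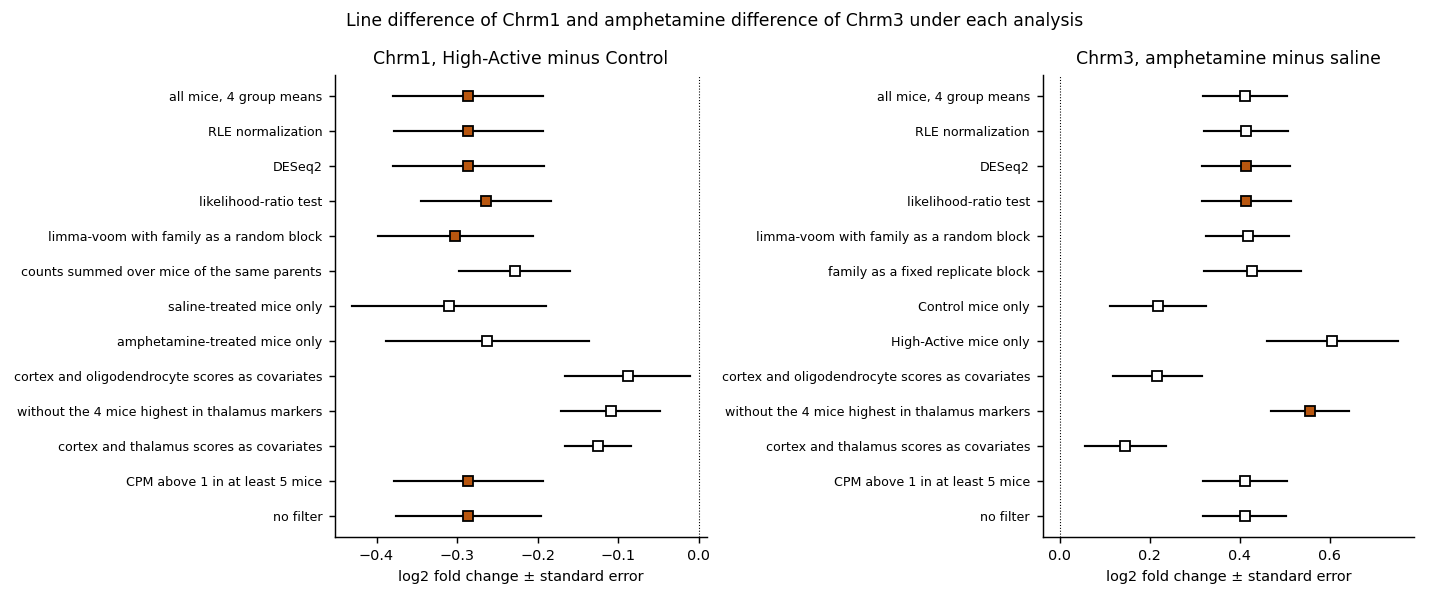
Log2 fold change with its standard error for Chrm1 between the lines (left) and for Chrm3 between treatments (right) under each analysis, with filled squares where the adjusted p was under 0.1. The Chrm1 difference moves from -0.29 to -0.11 without the 4 mice, and the Chrm3 difference moves from 0.41 to 0.56.

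The 2 genes most like Chrm1 over the 20 mice, by Pearson correlation of log2 CPM after the 4 group means were subtracted, were Mmd (r = 0.959) and Camkk2 (r = 0.958), a kinase that activates other calcium-dependent kinases. Without the 4 mice these values were 0.880 for Mmd and 0.919 for Camkk2. These mice share parents within each line, and the values are a description with no test.

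Chrm2 (ENSMUSG00000045613, chr6:36388084-36528414, plus strand) encodes the M2 receptor. Control saline mice had 18.5, 20.8, 23.6, 24.1 and 17.0 CPM and Control amphetamine mice 18.4, 25.7, 22.9, 24.5 and 17.1 CPM. High-Active saline mice had 32.0, 22.8, 22.5, 27.7 and 14.7 CPM and High-Active amphetamine mice 25.5, 27.6, 26.2, 23.3 and 24.7 CPM. The lines overlapped, and 9 of 10 High-Active mice were above the Control median of 21.9 CPM. The difference of 0.22 on the log2 scale (95% confidence interval -0.02 to 0.45) did not pass the test (quasi-likelihood adjusted p = 0.236). The 4 mice that stood apart held the 4 highest Chrm2 levels, between 26.2 and 32.0 CPM, and without them the difference was 0.06 (adjusted p = 0.847, same test). Leaving out High-Active saline mouse 5, the lowest of all 20, gave 0.28 and a call (adjusted p = 0.0629). The lincRNA gene 9330158H04Rik overlaps 142 exon bases of Chrm2 on the opposite strand.

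Chrm3 (ENSMUSG00000046159, chr13:9875486-10360847, minus strand), encoding the Gq-coupled M3 receptor, was at 14.7 ± 2.07 CPM in Control and 13.1 ± 3.67 CPM in High-Active mice (SD, n = 10 each). The line difference of -0.20 on the log2 scale (95% confidence interval -0.39 to 0.00032) did not pass (quasi-likelihood adjusted p = 0.192). It was -0.39 among saline mice (adjusted p = 0.175) and -0.0039 among amphetamine mice (adjusted p = 0.993, both by the quasi-likelihood test), and the interaction that compares them is given with the amphetamine results. A call was reached on leaving out High-Active saline mouse 1 (-0.25, adjusted p = 0.0817) or High-Active amphetamine mouse 1 (-0.25, adjusted p = 0.0811). Without the 4 mice that stood apart the difference was -0.19 (adjusted p = 0.280). It was -0.062 with counts added up within families (adjusted p = 0.850), -0.030 with cortical and thalamic scores (adjusted p = 0.891) and -0.017 with cortical and oligodendrocyte scores (adjusted p = 0.957, all by the quasi-likelihood test). Chrm5 (ENSMUSG00000074939, chr2:112479171-112480769, minus strand), encoding the M5 receptor of dopamine neurons, had between 30 and 113 reads per mouse. Its levels were 1.58 ± 0.593 CPM in Control and 1.91 ± 0.288 CPM in High-Active mice (log2 fold change 0.28, 95% confidence interval -0.14 to 0.69, quasi-likelihood adjusted p = 0.405).

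Among the nicotinic subunits, Chrna4 (ENSMUSG00000027577, chr2:181018380-181043546, minus strand) had the largest line difference of those that passed the filter. Control saline mice lay close together at 22.8, 22.7, 23.1, 22.5 and 22.6 CPM, and Control amphetamine mice had 22.5, 24.7, 18.3, 26.2 and 27.1 CPM. High-Active saline mice were spread, at 35.9, 17.4, 16.6, 24.8 and 24.7 CPM. High-Active amphetamine mice had 28.3, 34.9, 36.3, 29.4 and 31.9 CPM. Between the lines the log2 fold change was 0.43 among amphetamine mice and 0.07 among saline mice. Neither was called (quasi-likelihood adjusted p = 0.148 and 0.878). The line means were 23.3 ± 2.40 and 28.0 ± 7.15 CPM (SD, n = 10 each).

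The log2 fold change of Chrna4 was 0.25 (95% confidence interval 0.02 to 0.49) and did not pass (quasi-likelihood adjusted p = 0.156). Summing counts over mice of the same parents gave 0.28 and a call (adjusted p = 0.0955, same test), with 4.12% of all genes called in that fit. Leaving out High-Active saline mouse 2 or 3 also gave a call (adjusted p = 0.0790 and 0.0789). Of the 4 mice that stood apart, 3 held the 3 highest Chrna4 levels, and without the 4 the difference was 0.06 (adjusted p = 0.810).

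Chrnb2 (ENSMUSG00000027950, chr3:89746195-89764632, minus strand), the beta2 subunit, varied least among the members relative to its mean. Its levels were 71.3, 69.6, 68.9, 71.5 and 62.3 CPM in Control saline and 64.5, 64.7, 75.3, 69.7 and 61.7 CPM in Control amphetamine mice. They were 85.4, 69.4, 71.9, 79.7 and 63.4 CPM in High-Active saline and 69.9, 78.7, 75.5, 68.7 and 69.6 CPM in High-Active amphetamine mice. Of the 10 High-Active mice, 4 were above all Control mice, and these were the 4 that stood apart, at between 75.5 and 85.4 CPM. The line difference was 0.11 on the log2 scale (95% confidence interval 0.0010 to 0.21, quasi-likelihood adjusted p = 0.187) and 0.02 without the 4 mice (adjusted p = 0.886). Without High-Active saline mouse 5 it was 0.13 and was called (adjusted p = 0.0816). The exons of Chrnb2 share 1365 bases with Adar on the opposite strand. Over all tested genes, 0.967% had the 4 mice highest, as Chrm2 and Chrnb2 did.

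**Figure D4:**
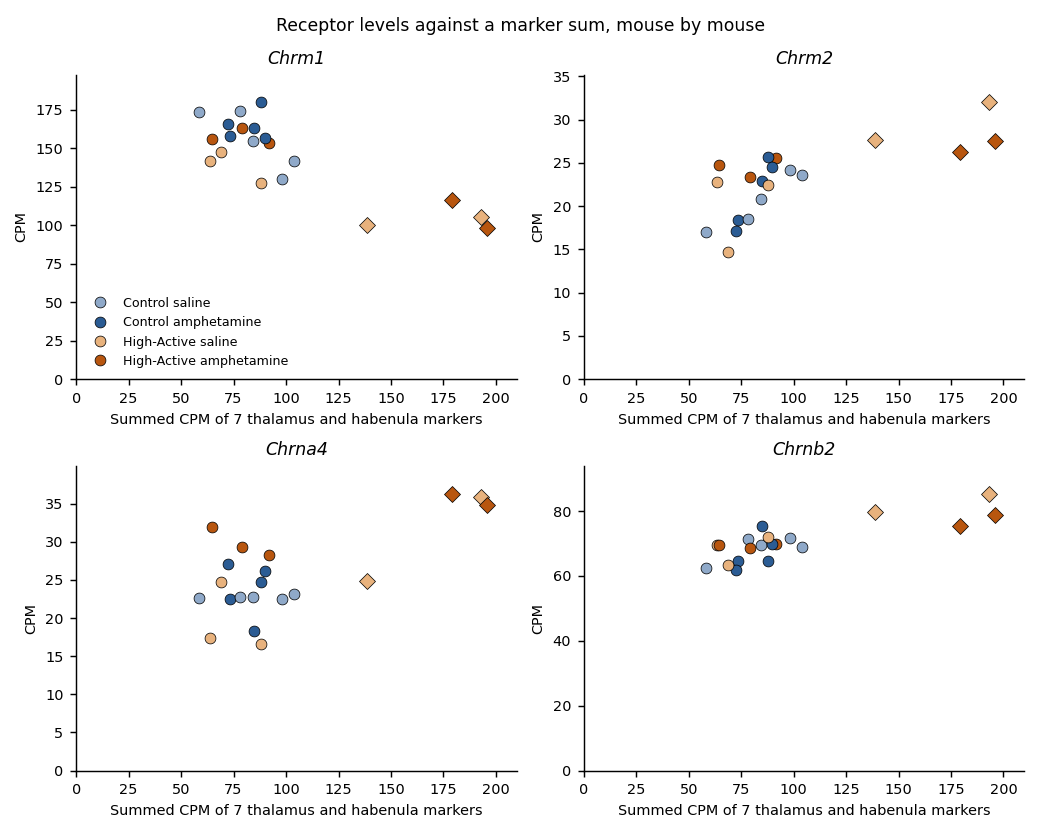
CPM of Chrm1, Chrm2, Chrna4 and Chrnb2 in each mouse against the summed CPM of 7 thalamus and habenula markers, coloured by group. The 4 High-Active mice at sums of 139 to 196 CPM (diamonds) lie below all others for Chrm1 and above all others for Chrm2 and Chrnb2.

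Chrna7 (ENSMUSG00000030525, chr7:63098692-63212569, minus strand), which forms homomeric calcium-permeable receptors, was at 9.54 ± 1.09 CPM in Control and 8.78 ± 0.958 CPM in High-Active mice (SD, n = 10 each). In High-Active mice 8 of 10 were below the Control median of 9.64 CPM, but only 1 was below all Control mice. The log2 fold change was -0.12 (95% confidence interval -0.27 to 0.02, quasi-likelihood adjusted p = 0.278). In the 16 mice without those that stood apart it was -0.10 (adjusted p = 0.618).

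The 3 scarce subunits are described from reads and from the fit without a filter. Chrna3 (ENSMUSG00000032303, chr9:55010111-55026562, minus strand) had between 17 and 49 reads per mouse and a line difference of 0.28 (95% confidence interval -0.18 to 0.73, quasi-likelihood adjusted p = 0.536). Chrnb3 (ENSMUSG00000031492, chr8:27368711-27399730, plus strand) had between 3 and 38 reads per mouse and a line difference of -0.10 (95% confidence interval -0.70 to 0.50, adjusted p = 0.971). Chrna6 (ENSMUSG00000031491, chr8:27403212-27413944, minus strand), the neighbour of Chrnb3 and a subunit of receptors on dopamine axons, had between 1 and 9 reads per mouse and 86 reads over all 20 mice. A count of 3 corresponds to between 0.0559 and 0.0926 CPM in these libraries, and no difference in Chrna6 was detectable at this depth, so no fold change is given. Markers of midbrain dopamine neurons, where Chrna6 and Chrnb3 are known to be made, summed to between 26.2 and 78.8 CPM over 7 genes.

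Amphetamine changed no receptor gene at the FDR threshold of 0.1 in the quasi-likelihood test, where 0% of the 14792 genes were called and 12.5% had an unadjusted p under 0.05. DESeq2 called 391 genes (2.64%) and edgeR's likelihood-ratio test 458 (3.1%). Among the receptor genes that passed the filter, 2 had an unadjusted p under 0.05, Chrm3 and Chrna4, and both were higher after amphetamine.

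Chrm3 ranked 25 of 14792 genes by its amphetamine p. Its levels were 15.2, 11.8, 12.0, 12.6 and 16.4 CPM in Control saline mice and 14.3, 18.3, 15.8, 16.1 and 14.7 CPM in Control amphetamine mice. In High-Active mice they were 13.6, 9.63, 9.54, 10.1 and 9.13 CPM after saline and 20.3, 12.4, 14.3, 16.7 and 15.3 CPM after amphetamine. All 10 amphetamine mice were above the saline median of 11.9 CPM, and 3 were above every saline mouse. The log2 fold change was 0.41 (95% confidence interval 0.22 to 0.61, unadjusted p = 0.000307 and adjusted p = 0.166 by the quasi-likelihood test, n = 10 each). DESeq2 gave 0.41 with an adjusted p of 0.0115, and the likelihood-ratio test 0.41 with an adjusted p of 0.00487, so the call depends on the test.

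Without the 4 mice that stood apart, the amphetamine difference of Chrm3 was 0.56 and was called (quasi-likelihood adjusted p = 0.0315), with 3.16% of genes called. Leaving out Control saline mouse 1, High-Active saline mouse 1 or High-Active amphetamine mouse 2 alone also gave a call (adjusted p = 0.0829, 0.0703 and 0.0522). With family as a fixed block the difference was 0.43 (quasi-likelihood adjusted p = 0.976). Cortical marker sums were higher in the amphetamine mice, with a median of 671 CPM (217 to 968) against 310 CPM (163 to 831) after saline, and 8 of the 9 markers had a positive amphetamine difference, none of them called. With cortical and thalamic scores in the model, the Chrm3 difference was 0.15 (quasi-likelihood adjusted p = 0.885), and with cortical and oligodendrocyte scores 0.22 (adjusted p = 0.763).

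Chrna4 was at 23.3 ± 5.21 CPM after saline and 28.0 ± 5.51 CPM after amphetamine (SD, n = 10 each). The difference of 0.25 on the log2 scale (95% confidence interval 0.02 to 0.48) did not pass the quasi-likelihood test (p = 0.0381, adjusted p = 0.373, n = 10 each). It was called by the likelihood-ratio test (0.29, adjusted p = 0.0817) and without the 4 mice that stood apart (0.34, quasi-likelihood adjusted p = 0.0767). With cortical and thalamic scores it was 0.09 (adjusted p = 0.938).

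The amphetamine difference of Chrna7 was 0.14 on the log2 scale (95% confidence interval -0.0034 to 0.29, quasi-likelihood adjusted p = 0.416). Chrm1 differed by 0.12 (95% confidence interval -0.08 to 0.31), Chrm2 by 0.08 (-0.16 to 0.31), Chrnb2 by -0.03 (-0.14 to 0.08) and Chrm5 by 0.04 (-0.38 to 0.46). None of these 4 passed the quasi-likelihood test (adjusted p between 0.653 and 0.953), and the interval was narrowest for Chrnb2 and widest for Chrm5.

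Chrnb3, the beta3 subunit, had the largest amphetamine difference of the members, from few reads. Control saline mice had 11, 11, 18, 7 and 14 reads and Control amphetamine mice 33, 18, 9, 18 and 22. High-Active saline mice had 15, 3, 13, 12 and 13 reads and High-Active amphetamine mice 29, 18, 16, 38 and 9. In CPM, 7 of the 10 amphetamine mice were above every saline mouse, and 3 were within the saline range. The log2 fold change in the fit without a filter was 0.81 (95% confidence interval 0.21 to 1.42) and was not called (quasi-likelihood adjusted p = 0.393). The 7 midbrain dopamine markers summed to a median of 60.5 CPM (33.8 to 69.3) after amphetamine and 42.3 CPM (26.2 to 78.8) after saline, with overlapping ranges. Of the 4 that were tested, 1 had a positive amphetamine difference, the median was -0.20 on the log2 scale and 0 were called by the quasi-likelihood test. Their part in the Chrnb3 difference was not tested. Chrna3 differed by -0.18 (95% confidence interval -0.64 to 0.27, adjusted p = 0.896).

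**Figure D5:**
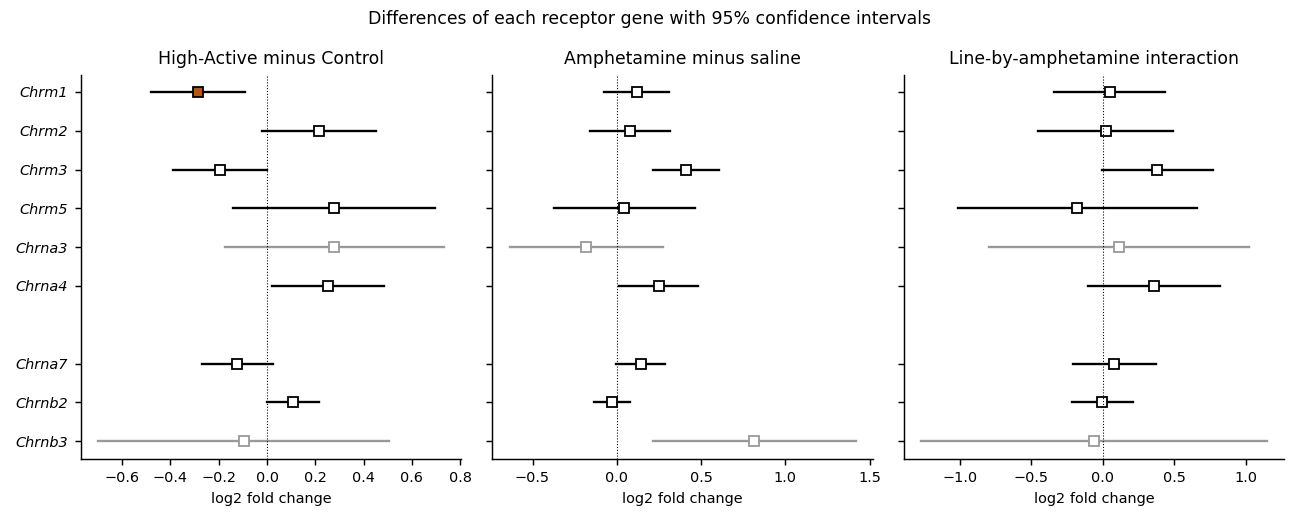
Log2 fold changes with 95% confidence intervals for the line, amphetamine and interaction effects, with a filled square where the adjusted p was under 0.1 and grey for genes below the expression filter, tested without it. Chrm1 between the lines is the 1 filled square. Chrna6 is left out because of its low counts.

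The responses of the lines to amphetamine did not differ at the FDR threshold for any receptor gene. In this interaction 0% of 14792 genes were called by the quasi-likelihood test and by DESeq2, 6 by the likelihood-ratio test, and 2.97% had an unadjusted quasi-likelihood p under 0.05. The amphetamine difference of Chrm3 was 0.22 on the log2 scale in Control mice alone and 0.61 in High-Active mice alone, neither of them called, and the difference of these responses was 0.38 (95% confidence interval -0.0092 to 0.77, quasi-likelihood adjusted p = 1.0). Without the 4 mice that stood apart the Chrm3 interaction was 0.67 (adjusted p = 0.487), with cortical and thalamic scores it was 0.15 (adjusted p = 1.000), and with family as a fixed block 0.16 (adjusted p = 1.0, all by the quasi-likelihood test). For Chrna4 the response was 0.07 in Control and 0.43 in High-Active mice, and the difference was 0.36 (95% confidence interval -0.11 to 0.82, adjusted p = 1.0). It was 0.54 without the 4 mice (adjusted p = 0.563), 0.15 with cortical and thalamic scores (adjusted p = 1.000) and 0.56 with the family block (adjusted p = 1.0), so neither interaction was called in any of these fits. For the other members that passed the filter, the interaction lay between -0.18 for Chrm5 and 0.08 for Chrna7.

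The remaining muscarinic receptor, Chrm4, encodes M4, the Gi/o-coupled receptor of direct pathway neurons. Its mean level per length, 51.3 CPM per kilobase (38.0 to 65.4 in the 20 mice), was above the 22.4 CPM per kilobase of Chrm1. In CPM the order was the reverse, with means of 73.8 for Chrm4 and 145 for Chrm1, so it depends on the annotated exon lengths. Chrm4 was at 78.4 ± 10.6 CPM in Control and 69.3 ± 11.0 CPM in High-Active mice (SD, n = 10 each). Its line difference of -0.18 was not called (quasi-likelihood adjusted p = 0.227). Without the 4 mice that stood apart the Chrm4 difference was -0.06 (adjusted p = 0.788, same test). Of 10 other nicotinic subunits, 8 had reads in these mice and 2 passed the filter, Chrna2 and Chrna5, neither of them called. The 6 genes of acetylcholine synthesis, transport and breakdown included no call between the lines, against 14.5% of all genes. They held none for the amphetamine effect either, where 0% of all genes were called by the quasi-likelihood test. Chat, the enzyme that makes acetylcholine, was at 21.2 ± 3.23 CPM in Control and 23.3 ± 5.40 CPM in High-Active mice (log2 fold change 0.13, quasi-likelihood adjusted p = 0.476).

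Among 8 tested chaperones and Ly6 modulators of nicotinic receptors, 2 were called higher in High-Active mice and 0 lower, where 7.63% of all genes were called higher and 6.9% lower. The median line difference was 0.03 against -0.00093 over all genes. Tmem35a, a chaperone that nicotinic receptors need for assembly, was at 60.5 ± 3.42 CPM in Control and 66.9 ± 4.48 CPM in High-Active mice (log2 fold change 0.14, quasi-likelihood adjusted p = 0.0301). Lypd1, a Ly6 protein that dampens nicotinic receptors, was at 82.0 ± 9.86 CPM in Control and 96.6 ± 13.2 CPM in High-Active mice (log2 fold change 0.23, adjusted p = 0.0510). Without the 4 mice that stood apart the differences were 0.12 and 0.19, and neither was called (adjusted p = 0.154 and 0.291).

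In the Gq pathway of M1, M3 and M5, 1 of 12 genes was called higher and 2 were called lower in High-Active mice, with a median of -0.12, against 7.63% higher and 6.9% lower over all genes. Plcb4, a phospholipase C, was higher by 0.28 on the log2 scale (quasi-likelihood adjusted p = 0.0627). Kcnq3, a subunit of the M-current channel that M1 closes, was lower, with a log2 fold change of -0.19 (adjusted p = 0.0688). In the Gi/o pathway of M2 and M4, 1 of 12 genes was called lower and 0 higher, with a median of -0.05, which is near the 6.9% of all genes called lower. This was Rgs4, which shortens G protein signals, at a log2 fold change of -0.27 (adjusted p = 0.0831). Plcb4, Kcnq3 and Rgs4 were not called without the 4 mice that stood apart (quasi-likelihood adjusted p between 0.449 and 0.583), and of these 3 Plcb4 alone was called with cortical and thalamic scores in the model (0.16, adjusted p = 0.0248). No gene of these lists was called for the amphetamine effect, where 0% of all genes were called by the quasi-likelihood test. At an unadjusted p under 0.05 in that test, 4 of the 12 Gi/o genes and 0 of the 12 Gq genes passed, against 12.5% of all genes.

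In this bulk tissue, fewer cells of a type and less RNA per cell cannot be told apart. Medium spiny neuron markers summed to a median of 6231 CPM (5276 to 6734) in Control and 5162 CPM (4300 to 7100) in High-Active mice. Only 1 of the 9 genes had a positive line difference, and the median was -0.13 on the log2 scale. By the quasi-likelihood test 0 of the 9 were called between the lines, against 14.5% of all genes. The sum of these markers had a median of 4646 CPM (4300 to 4979) in the 4 mice that stood apart. In the other 6 High-Active mice its median was 6400 CPM (4789 to 7100), which is above the Control median. The 6 cholinergic interneuron markers analysed summed to a median of 96.98 CPM (79.6 to 128) in Control and 111 CPM (81.1 to 159) in High-Active mice. All 6 had a positive line difference, with a median of 0.20, and 1 was called higher, against 7.63% of all genes. In the 4 mice that stood apart the sum had a median of 117 CPM (103 to 133). In the other 6 High-Active mice its median was 103 CPM (81.1 to 159). For the amphetamine effect 0 of the 6 had a positive difference, with a median of -0.32. By the quasi-likelihood test 0 were called for that effect, where 0% of all genes were called.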

How the data were processed

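Striatal RNA of 20 male mice was sequenced in TruSeq stranded libraries as 100 bp paired-end reads. The authors demultiplexed with CASAVA 1.8.2, aligned to GRCm38 with TopHat2 2.0.10 (Bowtie2 2.1.0, SAMtools 0.1.19) and deposited raw counts of reads per Ensembl gene (release 75) from htseq-count 0.6.1, with no normalization. The strand and overlap settings are not given in the sources used here. Rows that name no gene (5 rows, between 16.0% and 17.5% of reads) were left out.

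The counts were TMM-normalized and fitted in edgeR 4.0.16 (R 4.3.3) as 4 group means and tested by quasi-likelihood for line, amphetamine and their interaction, after a filter of more than 1 CPM in at least 3 mice. P-values were adjusted by the Benjamini-Hochberg method over all 14792 genes. Those of Chrna3 and Chrnb3, from the fit without a filter, were adjusted over 26116 genes. CPM were scaled by TMM factors of the table without a filter. Confidence intervals use the standard error of each gene and the total degrees of freedom of the quasi-likelihood test. These add to the residual ones those gained by sharing variance estimates over genes (19.0 in all with the filter and 20.8 without). Lengths, coordinates and coding sequences are from GENCODE M21, a later release than the one counted on. The test was checked on simulated counts of unrelated mice with larger line differences than those of the receptor genes. That check does not cover siblings or differences as small as these. Alternatives used DESeq2 1.42.0, limma 3.58.1, family terms, marker scores and other filters.

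The receptor genes and the gene lists were chosen with earlier results of these data known. All 10 members are named, pathway lists are given by counts with at most 4 called genes named per list, and for each member called between the lines the 2 most similar genes are named. Replicates are separate mice, numbered in accession order, so equal numbers pair no mice. The pairing used comes from the sire and dam in the labels, and 6 families held both treatments. P-values treat siblings as independent. Reads carry no molecular identifiers, so floors cover counting error only. Marker genes Slc18a3 and Dlk1 were not analysed here. The values of 1 called gene of the pathway lists are not reported here.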

Additional observations from a re-analysis of the deposited data

Results flagged for a closer look

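In each group of 5 mice the highest and the lowest level of each receptor gene were compared with the others by Dixon's test, and 4 of 40 groups held a mouse beyond the 95% limit, where chance flags about 1 in 20. For Chrm3, High-Active saline mouse 1 had 13.6 CPM against 9.13 to 10.1 CPM in the other mice of its group. For Chrna6, Control saline mouse 5 had 0.159 CPM against 0.0792 to 0.0887 CPM, which came from 7 reads against 3 or 4. For Chrnb2, Control saline mouse 5 had 62.3 CPM against 68.9 to 71.5 CPM. For Chrnb3, High-Active saline mouse 2 had 0.0746 CPM against 0.294 to 0.382 CPM, which came from 3 reads against 12 to 15. High-Active saline mouse 1 is 1 of the 4 mice with high thalamus marker sums, and without it the amphetamine difference of Chrm3 was 0.47 and the line difference -0.25, both called by the quasi-likelihood test (adjusted p = 0.0703 and 0.0817).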

How the results depend on the processing

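Over the 25 log2 fold changes of single receptor genes, 705 of 778 recomputed values kept their direction and their side of the threshold, 12 lost the call of Chrm1, 15 gained a call in 6 results and 46 changed sign in 10 results. The cause of these changes was not tested. The number of genes called between the lines, 2149 in the quasi-likelihood test, was 119 with the amphetamine mice only and 500 with the saline mice only, where fewer mice were used. It was 450 with cortical and oligodendrocyte scores, 595 with cortical and thalamic scores, 576 without the 4 mice highest in thalamus markers and 609 with counts added up within families. Both settings that name the thalamus were chosen after the data were seen. In all but the last of these settings 0 receptor genes were called, against 1, Chrm1, in the fit of 4 group means. With counts added up within families the 1 receptor gene called was Chrna4 (quasi-likelihood adjusted p = 0.0955). The call of Chrm1 was lost there too (adjusted p = 0.111, same test). With each mouse left out in turn, between 1385 and 2545 genes and between 0 and 3 receptor genes were called. The count was 1406 without Control saline mouse 5, 1385 without High-Active amphetamine mouse 2 and 1417 without High-Active saline mouse 4, and 3 receptor genes were called without High-Active saline mouse 5.

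For the amphetamine effect, 0 genes were called in the quasi-likelihood test, against 391 with DESeq2 (1 receptor gene), 458 by the likelihood-ratio test under robust dispersions (2 receptor genes), 467 without the 4 mice (2 receptor genes) and 1 with family as a fixed replicate block. With each mouse left out the counts were between 0 and 339 genes and between 0 and 1 receptor genes, with 339 without High-Active amphetamine mouse 2 and 82 without Control saline mouse 1. For the interaction, where 0 genes were called, the likelihood-ratio test called 6 and the replicate block 1, and leaving out a mouse between 0 and 1. The block by shared parents was fitted for amphetamine and the interaction only, and called none of the receptor genes that passed the filter. These had no call to lose, so the block does not bear on the line call of Chrm1. For the line effect, adding up counts within families lost the call of Chrm1 and gained one of Chrna4. Same-numbered mice share only an accession order.

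Some differences changed sign. Among them were those of Chrna3, which were 0.28 between the lines and -0.18 for amphetamine in the fit without a filter. With cortical and oligodendrocyte scores the line difference became -0.057 for Chrna3 and 0.0044 for Chrnb3, the amphetamine difference -0.068 for Chrm1, 0.058 for Chrnb2 and 0.29 for Chrna3, and the interaction -0.093 for Chrm1 and 0.059 for Chrnb2. With cortical and thalamic scores the line difference became -0.067 for Chrna3 and 0.083 for Chrnb3, the amphetamine difference of Chrna3 0.20 and the interaction of Chrm2 -0.087. The amphetamine difference of Chrm5 was -0.043 in High-Active mice only and -0.041 without the 4 mice. With the replicate block the interaction was -0.19 for Chrm2 and -0.021 for Chrna7, and with the likelihood-ratio test -0.0079 for Chrm2 and 0.0020 for Chrnb2. The interaction of Chrnb2 was 0.0029 with limma-voom, 0.0030 with no filter and 0.052 without the 4 mice. With each mouse left out, sign changes occurred in the line difference of Chrnb3 (-0.23 to 0.022), the amphetamine difference of Chrm5 (-0.025 to 0.15) and the interactions of Chrm1 (-0.022 to 0.15), Chrm2 (-0.11 to 0.15) and Chrnb2 (-0.056 to 0.056). Depth limits Chrna6, Chrnb3 and Chrna3, which had at most 9, 38 and 49 reads per mouse.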

Other observations

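The midbrain, septum, astrocyte, microglia, endothelial and choroid plexus markers were measured beside the receptors in the same mice. Septum markers summed to between 48.9 and 110 CPM in Control mice and between 62.95 and 192 CPM in High-Active mice, with 1 of 4 tested genes called higher. Their median sum was 168 CPM in the 4 mice with high thalamus marker sums. It was 91.5 CPM in the other 6 High-Active mice and 81.4 CPM in Control mice. Choroid plexus markers ran from 20.5 to 899 CPM, and were between 98.7 and 899 CPM in the 4 mice with high thalamus marker sums. They were between 31.2 and 168 CPM in the other 6 High-Active mice. In the 10 Control mice they were between 20.5 and 735 CPM, so high sums were not particular to the 4 mice. Over all genes tested, 7.63% were called higher and 6.9% lower in High-Active mice. Of 5 astrocyte genes 2 were called higher in High-Active mice, of 5 microglia genes 2 were called lower, and of 5 endothelial and 4 tested midbrain dopamine genes 0 were called between the lines by edgeR's quasi-likelihood test. Of 7 oligodendrocyte genes 1 was called higher. The 4 mice with high thalamus marker sums came from 4 different parent pairs, whose families gave 9 of the mice in the experiment.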
